A study of Mus musculus with 25 samples.

Results

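The respiratory chain of the mitochondrion was followed through the RNA of 98 of 43411 annotated genes, the subunits of complexes I, III, IV and V. They were chosen by the start of the gene symbol (Ndufa, Ndufb, Ndufc, Ndufs, Ndufv, Uqcr, Cox4 to Cox8, Atp5, mt-Nd, mt-Co, mt-Atp and mt-Cytb). Of 113 genes with such a symbol, 7 pseudogenes carrying the suffix -ps and 8 assembly factors of the Ndufaf series were set aside. The members are 85 nuclear genes (41 for complex I, 8 for complex III, 19 for complex IV, 17 for complex V) and 13 mitochondrial genes (7, 1, 3 and 2). Each was placed in a complex by its symbol alone, so Ndufa4 and Ndufa4l2 are counted under complex I and not under complex IV. The samples were microglia, the resident macrophages of the brain, sorted as CD11b+ and CD45med cells from brains of 3-month-old mice, each mouse giving its own library. Homozygous Bin1-cKO mice (Bin1 flox/flox, Thy1-Cre+, 10 mice, 5 of them female), heterozygous Bin1-cKO mice (Bin1 flox/wt, Thy1-Cre+, 7 mice, 4 female) and WT littermates (Bin1 flox/wt, Thy1-Cre-, 6 mice, 2 female) were compared, to ask how loss of Bin1 in neurons alters microglia. Every mouse carried at least 1 floxed Bin1 allele (strain B6.129S6-Bin1tm2Gcp/J), and Cre came from the transgenic line FVB/N-Tg(Thy1-cre)1Vln/J. In this line Thy1 drives Cre in forebrain excitatory neurons, so the sorted cells are not those in which Bin1 was deleted. A further WT female and a further heterozygous male that the labels list are not used here.

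The chain moves electrons from NADH through complex I, coenzyme Q, complex III and cytochrome c to oxygen at complex IV, and ATP synthase (complex V) uses the resulting proton gradient. Its subunits come from both genomes: the mitochondrial DNA encodes hydrophobic core proteins, transcribed as long polycistronic RNAs that also hold the rRNAs, whereas all other subunits are transcribed in the nucleus and imported. Microglia rely on both oxidative phosphorylation and glycolysis, and the balance is known to shift upon activation.

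Total counts per mouse ranged from 10812969 to 16734846. In the sorted cells the 10 microglial marker genes summed to between 52234 and 87317 CPM (counts relative to a library size adjusted by TMM), against at most 41.2 CPM for 12 neuronal markers. Astrocyte markers summed to between 209 and 310 CPM and oligodendrocyte markers to between 153 and 253. Endothelial markers reached 69.8 CPM and border macrophage markers 45.9. The microglial and the neuronal sum moved with genotype. Microglial markers spanned 60496 to 87317 CPM in WT littermates and 52234 to 60966 CPM in homozygous mice, with 6 of 10 genes called lower, and neuronal markers spanned 12.8 to 41.2 against 4.89 to 10.6 CPM. Monocyte and neutrophil markers reached 56.0 CPM in homozygous and 20.2 CPM in WT mice, and immediate-early genes 13106 and 613 CPM. The homozygous mice also carried animal numbers of their own (6 in the 300s and 4 in the 400s, against the 200s for all 13 others), so genotype and number range cannot be told apart. The part of these differences in the results on the respiratory chain was not tested. In bulk RNA, a smaller number of cells of a type and less RNA per cell cannot be told apart.

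Of the 98 members, 88 had enough counts to be tested, the 13 mitochondrial genes and 75 nuclear ones. The remaining 10 were nuclear (Atp5c1, Cox4i2, Cox7a1, Cox7b2, Cox8b, Cox8c, Ndufa4l2 and the processed pseudogenes Cox6c2, Ndufa11b and Ndufs6b), and Atp5c1 and Cox8c had no count in any mouse. Of 9 members listed as alternative isoforms, Cox6a2, Cox6b2 and Atp5g1 were tested, with log2 fold changes between homozygous and WT mice of 0.11, 0.04 and 0.02 (adjusted p = 0.887, 0.96 and 0.91). Summed over members, nuclear subunits held 4981 ± 379 CPM in WT (SD, n = 6), 4732 ± 280 in heterozygous (n = 7) and 5072 ± 236 in homozygous mice (n = 10). Mitochondrial subunits held 2248 ± 711, 2627 ± 727 and 2682 ± 601 CPM. The ranges of the 3 genotypes overlapped in both sums. Between the lowest and the highest mouse the nuclear sum varied 1.24-fold and the mitochondrial sum 2.94-fold.

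**Figure D1:**
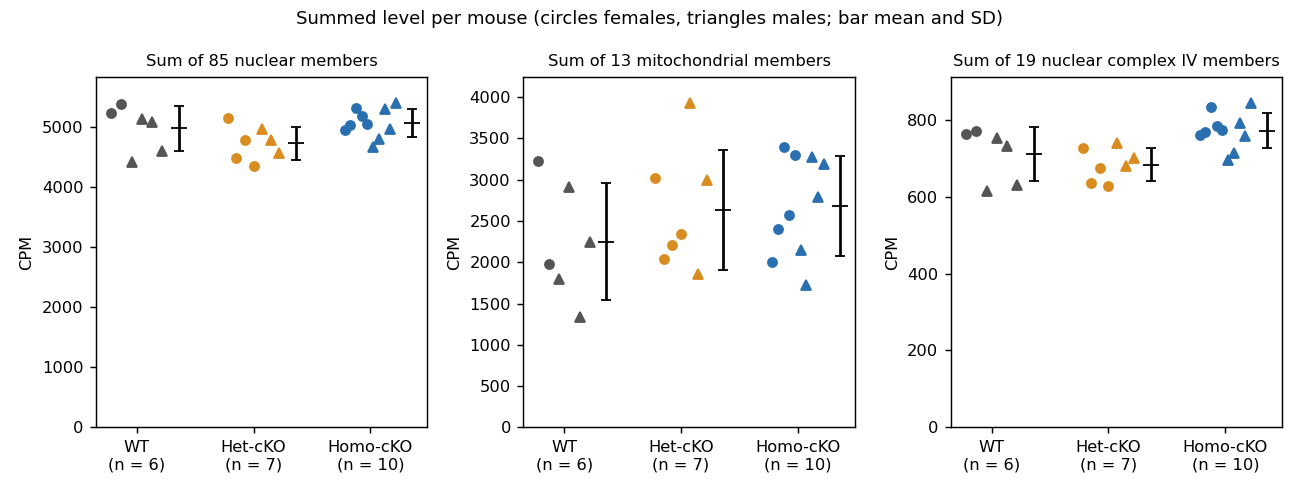
Summed CPM of nuclear and of mitochondrial subunit genes in each mouse by genotype (circles females, triangles males, bars mean and SD), with the nuclear complex IV genes in the right panel. The nuclear sum lies between 4348 and 5404 CPM in all mice and the mitochondrial sum between 1336 and 3927 CPM, with overlapping genotypes in every panel.

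Levels of different genes were compared per kilobase of transcript, scaled to a constant total in each mouse (TPM). On this scale, which counts only reads given to the member itself, the mitochondrial members had a median of 503 TPM (60.1 to 955) and the tested nuclear members 137 TPM (5.38 to 491). Among the mitochondrial genes that share no sequence with other genes, mt-Nd1 was at 814 TPM, mt-Cytb at 768 and mt-Atp8 at 728. mt-Co3 (955), mt-Atp6 (888) and mt-Co2 (525) held 48.2%, 64.9% and 60.01% of the counts they share with nuclear copies, so their place in the order depends on how such reads were assigned. The leading nuclear genes were Atp5b, the catalytic beta subunit of ATP synthase, at 491 TPM, Cox4i1 at 399 and Cox6a1 at 384. The mouse-to-mouse spread of mt-Nd1, mt-Cytb and mt-Atp8 was wider than the gaps between their means. All of them were measured in the same mice, so this spread cannot decide whether their levels differ. A comparison within each mouse was not made, and their order was not tested.

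Between homozygous and WT microglia, nuclear subunit genes moved little. With edgeR's quasi-likelihood test and an adjusted p below 0.05, 4 of the 75 tested nuclear members were called higher (5.33%, against 5.66% of all 12908 genes) and 1 lower (against 7.09% of all genes). These shares are near or under the background, so the count by itself sets the members apart from other genes in neither direction. At an unadjusted p below 0.05 there were 16 nuclear members, against 27.1% of all genes. No called member changed more than 1.5-fold, whereas 3.4% of all genes were called at that size. Nuclear members had a median log2 fold change of 0.04 beside 0.01 over all genes, and their median standard error was 0.0827. Of these 75 genes, 50 were fitted higher, 27 when females were compared alone, and 69 when libraries were scaled to their totals without TMM, which moved the median of all genes to 0.11. DESeq2 called 5 nuclear members higher and 1 lower (894 and 1050 over all genes).

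The 4 genes called higher were 2 subunits of complex IV and 2 accessory genes of complex I. Cox6b1 (ENSMUSG00000036751, chr7:30616861-30626151, minus strand, GRCm38), which bridges the monomers of cytochrome c oxidase on the intermembrane side, was at 59.8 to 82.3 CPM in WT (median 80.4), 63.0 to 77.2 in heterozygous (71.0) and 79.7 to 102.9 in homozygous mice (88.5). Of the homozygous mice, 8 of 10 lay above all WT mice and 10 of 10 above all heterozygous mice. Its log2 fold change against WT was 0.25 (SE 0.0746, adjusted p = 0.0292), and the call was lost when WT male 1, WT male 4 or homozygous male 5 was left out. Cox6c (chr15:35925886-35938246, minus strand), a small transmembrane subunit of the same complex, was at 34.9 to 49.6 CPM in WT (median 46.3), 38.8 to 51.2 in heterozygous (44.0) and 48.1 to 57.9 in homozygous mice (52.9). For Cox6c, 9 of 10 homozygous mice exceeded all WT mice. The log2 fold change of Cox6c was 0.26 (SE 0.0785, adjusted p = 0.031), and this call was lost without WT male 1 or WT male 4.

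Ndufa3 (ENSMUSG00000035674, chr7:3617373-3620327, plus strand), an accessory subunit of complex I, was at 32.6 to 45.1 CPM in WT (median 41.6), 37.0 to 45.3 in heterozygous (39.1) and 40.6 to 60.3 in homozygous mice (49.4). 8 of 10 homozygous mice were above every WT mouse, with a log2 fold change of 0.30 (SE 0.0816, adjusted p = 0.0161). Ndufb4c (chr15:73809507-73809896, minus strand) was at 21.7 to 30.4, 23.8 to 29.4 and 30.1 to 36.3 CPM, and its log2 fold change was 0.29 (SE 0.0732, adjusted p = 0.0114). By the annotation Ndufb4c is a processed pseudogene, and 100.0% of its 50-base sequences also occur in other annotated genes, Ndufb4 among them. Reads of Ndufb4 and Ndufb4c can therefore be exchanged, and Ndufb4 itself had a log2 fold change of 0.02. With the counts of such copies added to their parent gene, Ndufb4 was 0.21 higher on the log2 scale (adjusted p = 0.0388). The calls of Ndufa3 and Ndufb4c were kept whichever mouse was left out.

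Ndufa13 was the nuclear member called lower. It encodes an accessory subunit of complex I, also known as GRIM-19, and lies at chr8:69894180-69902558 on the minus strand. Its levels were 70.7 to 90.4 CPM in WT (median 74.3), 66.5 to 81.1 in heterozygous (76.2) and 59.9 to 74.1 in homozygous mice (64.5). 7 of 10 homozygous mice were below all WT mice. The log2 fold change of Ndufa13 was -0.23 (SE 0.0637, adjusted p = 0.0197), and the call was lost without WT female 1, the mouse at 90.4 CPM. Of the 50-base sequences of Ndufa13, 27.1% also occur in Tssk6 on the opposite strand, a gene with a mean count of 21.6. Strand is not recorded by this library kit, so reads of the overlap cannot be assigned.

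**Figure D2:**
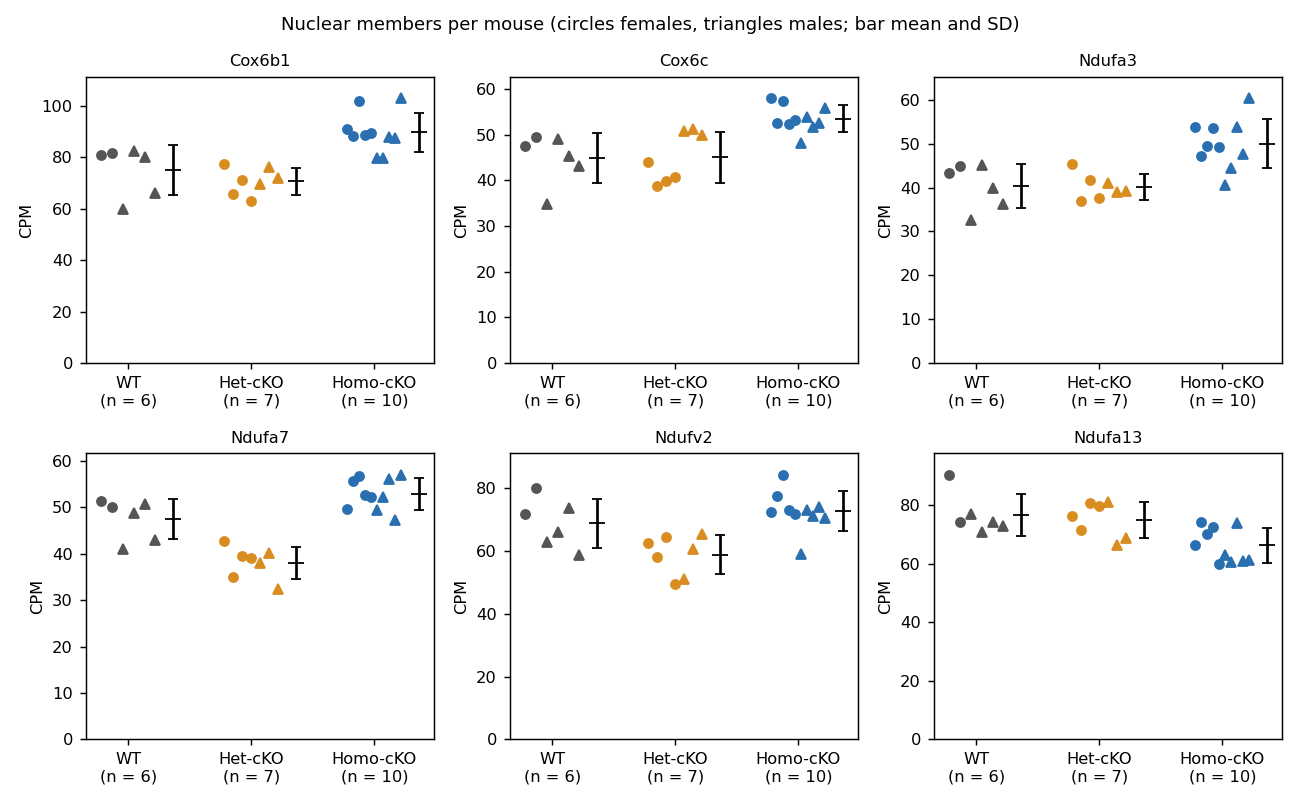
CPM of Cox6b1, Cox6c, Ndufa3, Ndufa7, Ndufv2 and Ndufa13 in each mouse by genotype (circles females, triangles males, bars mean and SD). Homozygous mice lie mostly above WT for Cox6b1, Cox6c and Ndufa3 and below for Ndufa13, whereas for Ndufa7 the heterozygous mice lie low, at 32.4 to 42.7 CPM.

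Arranged by role, 11 of the 13 tested nuclear genes of complex IV were fitted higher in homozygous than in WT mice, with a median log2 fold change of 0.17. With library totals 13 of them were, in males alone 12 and in females alone 7, at a median of 0.04. Their summed level was 710 ± 69.8 CPM in WT, 683 ± 42.5 in heterozygous and 772 ± 46.4 in homozygous mice, and 5 of 10 homozygous mice exceeded all WT mice. Beside Cox6b1 and Cox6c, Cox7b had a log2 fold change of 0.26 (SE 0.093, adjusted p = 0.0644) and Cox8a of 0.18 (adjusted p = 0.0766), while Cox4i1, the isoform that regulates the enzyme by ATP, had -0.03 (adjusted p = 0.807). In the core of the matrix arm of complex I, which carries the flavin and the iron-sulfur clusters, 0 of 7 genes were called by edgeR (2 at an unadjusted p below 0.05) and the median was -0.06, with Ndufv1 at -0.16 and Ndufs8 at -0.15. The 31 accessory genes of complex I had a median of 0.05, the 8 genes of complex III 0.01, the 4 tested genes of the catalytic head of ATP synthase -0.01 and the 12 of its membrane part and stalk 0.04. Uqcrc1, a core protein of complex III and its nuclear gene with the highest CPM, had a log2 fold change of -0.12 (adjusted p = 0.142), Atp5b of -0.03 and Ndufa9 of 0.00. Of the further genes with the largest fitted changes, Ndufs5 had 0.22 (adjusted p = 0.219), and -0.0038 with the counts of its copies added, Ndufs7 -0.12 (adjusted p = 0.236), Ndufb5 -0.09 (adjusted p = 0.484), Ndufa1 -0.08 (adjusted p = 0.647) and Ndufa10 -0.13 (adjusted p = 0.2). The members on chromosome 18, which also holds Bin1, were Atp5a1 and Ndufa2, each at -0.06.

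Homozygous and heterozygous mice, which both carry Cre, were compared next. This comparison shares the homozygous mice with the one above. Of the 75 nuclear members 18 were called higher (24.0%, against 11.1% of all genes) and 1 lower (against 11.7%), Ndufa13 again. None of them passed the 1.5-fold threshold, which 6.62% of all genes did. The median log2 fold change was 0.13 over nuclear members, 63 of 75 being fitted higher, and 0.00 over all genes. DESeq2 called 21 higher and 1 lower (1592 and 1662 over all genes) and limma-voom 19 and 1 (1351 and 1583 over all genes). Within the homozygous mice of the 300s alone 10 nuclear members were called higher, against 1175 of all 12732 genes. Within those of the 400s there were 9, against 709 of all 13090 genes.

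**Figure D3:**
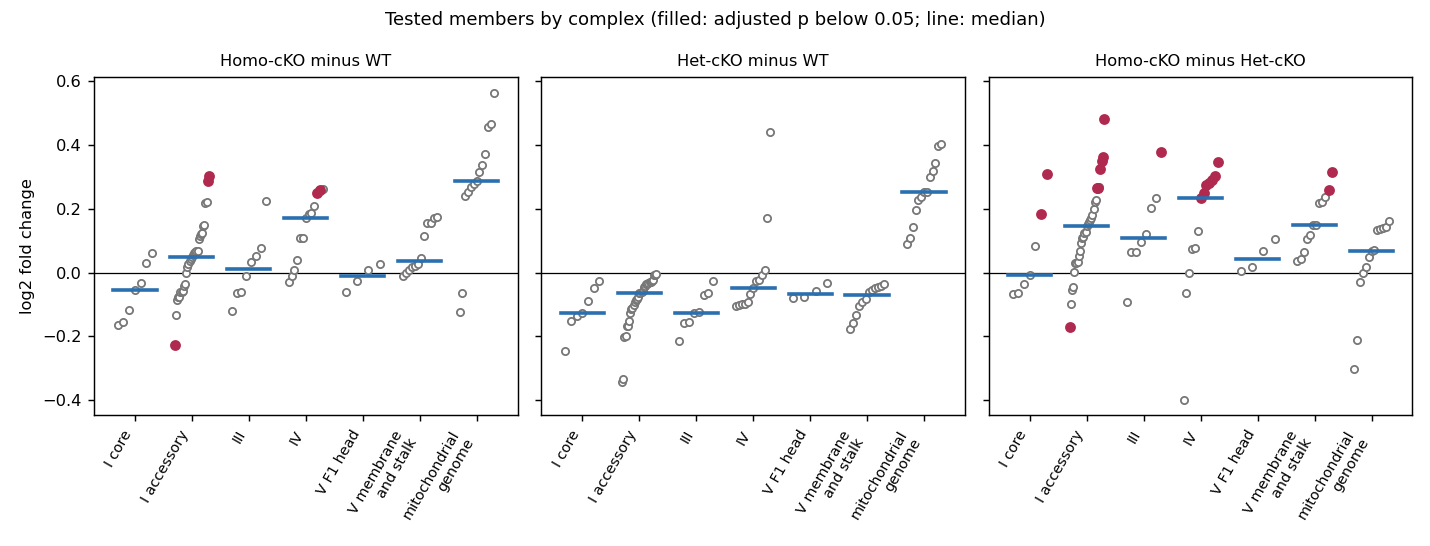
Log2 fold change of every tested member by complex, for each pair of genotypes in a panel of its own (filled points, adjusted p below 0.05, with a line at each median). Nuclear members centre on 0.04 for homozygous against WT, -0.08 for heterozygous against WT and 0.13 for homozygous against heterozygous mice, and mitochondrial members on 0.29, 0.25 and 0.07.

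Complex IV held 7 of these 18 genes, out of 13 tested (53.8%, against 11.1% of all genes), with a median log2 fold change of 0.23. They were Cox6b1 (0.35, SE 0.0709, adjusted p = 0.0013), Cox8a (0.28, SE 0.064, adjusted p = 0.00308), Cox7c (0.30, adjusted p = 0.0121), Cox6c (0.25, adjusted p = 0.0174), Cox5a (0.27, adjusted p = 0.0189), Cox7b (0.29, adjusted p = 0.0199) and Cox7a2 (0.23, adjusted p = 0.0206). Of these, Cox6b1, Cox8a, Cox7c, Cox5a and Cox7a2 have transcripts of at most 700 bases. Among all tested protein-coding genes of that length 21.2% were called higher. In females alone 7 genes of complex IV were called higher, and in males alone 0, where the median was 0.09. Over all genes 697 of 13495 were called higher in females alone, but only 184 of 13064 in males alone. Only 3 heterozygous mice were male. Cox8a, a short subunit that crosses the inner membrane, was at 64.5 to 76.9 CPM in heterozygous mice (median 70.0) and 74.8 to 95.6 in homozygous mice (85.3). Cox5a, which binds a thyroid hormone metabolite on the matrix side, was at 34.1 to 44.3 CPM (40.4) against 40.4 to 56.5 (48.2). For each of Cox8a, Cox5a and Cox7a2, 9 of 10 homozygous mice were above all heterozygous mice. The complex IV sum of 8 of 10 homozygous mice exceeded that of every heterozygous mouse.

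In complex I the gene with the smallest p was Ndufa7 (ENSMUSG00000041881, chr17:33824572-33838317, plus strand), an accessory subunit near the matrix arm. Ndufa7 was at 41.2 to 51.5 CPM in WT (median 49.4), 32.4 to 42.7 in heterozygous (39.0) and 47.4 to 57.1 in homozygous mice (52.6). All 10 homozygous mice lay above all heterozygous mice, and 6 of 7 heterozygous mice lay below all WT mice. The log2 fold change of homozygous against heterozygous mice was 0.48 (SE 0.0639, adjusted p = 2.7e-05), and that call was kept in 16 of 16 alternative fits and in all 23 fits that left out a mouse. Against WT, Ndufa7 had a log2 fold change of 0.15 in homozygous (adjusted p = 0.156) and -0.33 in heterozygous mice (SE 0.0723, adjusted p = 0.425). DESeq2 called the latter, with -0.34 on the log2 scale.

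Of the core subunits of complex I, Ndufv2, which holds an iron-sulfur cluster beside the flavin subunit, was at 49.6 to 65.5 CPM in heterozygous (median 60.6) and 59.1 to 84.3 in homozygous mice (72.7), a log2 fold change of 0.31 (SE 0.0708, adjusted p = 0.00311). WT mice, at 58.7 to 79.9 CPM (68.9), overlapped both. Ndufs1, the largest iron-sulfur subunit, rose by 0.18 (adjusted p = 0.0264). Uqcrb, the ubiquinone-binding protein of complex III, was at 53.1 to 66.3 CPM in heterozygous (56.1) and 54.9 to 89.2 in homozygous mice (73.4), a log2 fold change of 0.38 (SE 0.0949, adjusted p = 0.00619). Among the genes of ATP synthase, Atp5f1, the b subunit of the stator stalk, was at 126.5 to 153.9 against 149.4 to 174.8 CPM, a log2 fold change of 0.26 (SE 0.0569, adjusted p = 0.00232). Atp5s differed by 0.31 (adjusted p = 0.0367), with 0.45 against the homozygous mice of the 300s and 0.08 against those of the 400s. The other accessory genes called higher were Ndufa3 (0.32), Ndufb4c (0.35), Ndufb4 (0.36), Ndufb3 (0.27) and Ndufab1 (0.26), the last being the mitochondrial acyl carrier protein. The call of Ndufa13, at -0.17 (adjusted p = 0.0448), held in 9 of the 23 fits with a mouse removed.

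Many respiratory chain transcripts are short, 31 of the 75 tested nuclear ones having at most 700 bases. Of the nuclear members with a transcript of at most 700 bases, 9 of 31 were called higher in homozygous than in heterozygous mice (29.0%), with a median log2 fold change of 0.20. Among all tested protein-coding genes of that length the share was 21.2% (49 of 231) and the median 0.14. Between 700 and 1000 bases it was 18.8% of 16 members and 18.9% of protein-coding genes, and between 1000 and 2000 bases 18.2% of 22 members and 15.6% of protein-coding genes. The protein-coding genes include the protein-coding members themselves. The 11.1% given above covers genes of every type and length, so it differs from these shares in more than length. Between 2000 and 4000 bases 2 of 4 members were called higher, against 13.3% of protein-coding genes. Of the 2 members over 4000 bases 0 were called. The members of at most 700 bases include the processed pseudogene Ndufb4c, which was called higher. Protein-coding genes over 4000 bases were called higher in 6.07% and lower in 18.8%. The part of transcript length in the members' difference was not tested.

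Heterozygous and WT mice, which share the WT mice with the homozygous comparison, had no difference called in any gene by edgeR (0.0% of 12908). At an unadjusted p below 0.05 there were 7 of 75 nuclear members, against 7.73% of all genes, and 0 of 13 mitochondrial members. DESeq2 called 1 nuclear member, Ndufa7, which was lower, and limma-voom 0. Over all genes DESeq2 called 2 higher and 1 lower. The median log2 fold change of the nuclear members was -0.08, with 3 of 75 fitted higher, and that of all genes was 0.00. Tested protein-coding genes of like length had medians of -0.07 up to 700 bases, -0.07 from 700 to 1000 and -0.05 from 1000 to 2000, about as low as the members. Among males alone the median was 0.00 with 38 of 75 fitted higher, and among females, of which only 2 were WT, it was -0.21 with 2 of 75.

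The mitochondrial genes gave no call in any pair of genotypes by edgeR, DESeq2 or limma-voom. Between homozygous and WT mice 3 of 13 had an unadjusted p below 0.05 with edgeR (mt-Nd4, mt-Nd5 and mt-Nd6), and the median log2 fold change was 0.29, with 11 of 13 fitted higher. Their median standard error was 0.197, more than that of the nuclear members. mt-Nd6, a subunit of the membrane arm of complex I and the gene on the light-strand transcript (chrM:13552-14070, minus strand), was at 15.1 to 44.9 CPM in WT (median 28.7), 25.6 to 60.8 in heterozygous (41.3) and 30.9 to 64.7 in homozygous mice (49.3). Strand is not recorded by this library kit, so RNA of the opposite strand cannot be told apart from mt-Nd6. For mt-Nd6, 6 of 10 homozygous mice were above all WT mice, and the log2 fold change was 0.56 (SE 0.215, adjusted p = 0.0858). The neighbouring membrane-arm genes mt-Nd5 and mt-Nd4 had 0.47 (SE 0.205, adjusted p = 0.141) and 0.45 (SE 0.209, adjusted p = 0.159). Without homozygous females 1 and 2 and males 1 and 2, the mice with high Fos, mt-Nd4, mt-Nd5 and mt-Nd6 were called higher, at 0.69, 0.67 and 0.75. Over all genes, 447 of 12735 were called higher in that fit. The mice left out had the lowest mitochondrial sums of the homozygous mice, 1730 to 2404 CPM against 2577 to 3400. Leaving them out therefore raises the mitochondrial difference by construction. All of them also belong to the lower number range of the homozygous mice.

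mt-Cytb, the cytochrome b of complex III (chrM:14145-15288, plus strand), was at 196.7 to 536.1 CPM in WT (median 327.3), 275.0 to 602.0 in heterozygous (365.6) and 291.1 to 568.5 in homozygous mice (451.4). The 3 genotypes overlapped over most of this range, and the log2 fold change of homozygous against WT was 0.34 (SE 0.194, adjusted p = 0.279). The genes of complex IV were split, with mt-Co1, the catalytic subunit, at 0.25 (adjusted p = 0.454), mt-Co2 at 0.24 (adjusted p = 0.441) and mt-Co3 at -0.12 (SE 0.195, adjusted p = 0.737). The membrane subunits of ATP synthase, mt-Atp6 and mt-Atp8, had 0.28 (adjusted p = 0.318) and 0.29 (adjusted p = 0.282). In complex I, mt-Nd1 had 0.27, mt-Nd2 0.37, mt-Nd3 -0.06 and mt-Nd4l 0.32, the last with a standard error of 0.609 at a median of 6.58 CPM in WT. Heterozygous mice were fitted above WT in 13 of 13 mitochondrial genes, with a median of 0.25, but in 3 of 13 among females alone. Between homozygous and heterozygous mice the median was 0.07, and it was -0.07 with the homozygous mice of the 300s alone and -0.13 among males.

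**Figure D4:**
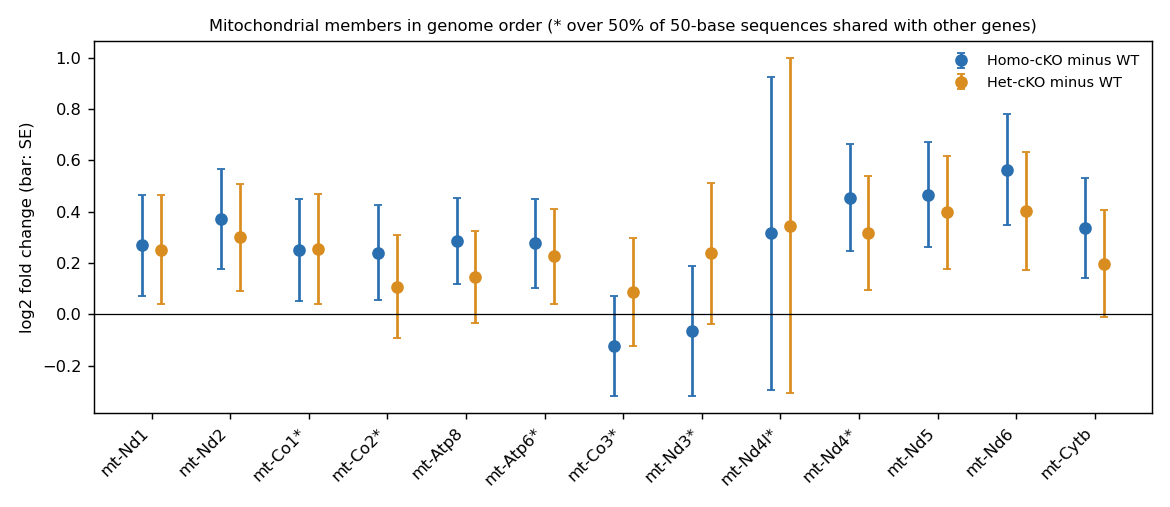
Log2 fold change of the 13 mitochondrial members in genome order, homozygous and heterozygous mice each against WT (points with SE, asterisks for genes that share most of their sequence with other genes). For homozygous mice the values run from -0.12 for mt-Co3 to 0.56 for mt-Nd6, with the widest error at mt-Nd4l.

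Some of the mitochondrial genes cannot be separated from nuclear copies of mitochondrial DNA. A stretch of chromosome 1 (GRCm38, 24611535 to 24616197) holds unprocessed pseudogenes that match mt-Co3 over 783 of 783 bases (Gm28437), mt-Co2 over 681 of 681 (Gm28661), mt-Atp6 over 678 of 678 (Gm10925), mt-Nd4l over 294 of 294 (Gm10222) and mt-Nd3 with 1 difference over 345 (Gm28438). The opening 60 bases of mt-Co3 and mt-Nd3 (chrM:8607-8666 and chrM:9459-9518, plus strand) and of their copies (chr1:24613912-24613971 and chr1:24613060-24613119, minus strand), from the annotated transcripts, show how little a read has to go by. Capitals mark the base that differs, T3C counted from the start of the mt-Nd3 transcript.
mt-Co3: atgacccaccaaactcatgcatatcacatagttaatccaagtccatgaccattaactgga
Gm28437: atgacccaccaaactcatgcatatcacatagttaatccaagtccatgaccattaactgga
mt-Nd3: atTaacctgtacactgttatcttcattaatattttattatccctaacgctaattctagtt
Gm28438: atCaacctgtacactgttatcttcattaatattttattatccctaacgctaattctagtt
Of the counts that mt-Co3 and Gm28437 received together, mt-Co3 held 48.2%, and mt-Nd3 held 62.2% of its pair. With copies summed, mt-Nd3 was called lower in homozygous than in heterozygous mice (log2 fold change -0.56, adjusted p = 0.0464), where it had -0.30 on its own counts, and mt-Co3 had -0.05 against WT. mt-Cytb, mt-Nd1, mt-Nd6 and mt-Atp8 share none of their 50-base sequences with another annotated gene, and their values do not rest on this split.

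Set against the large mitochondrial rRNA of the same library, 6 of the 13 mitochondrial mRNAs were higher in every homozygous mouse than in any other mouse, and 4 were so against the small rRNA. This ratio was chosen after its values had been seen and is given without a test. The share of all genes with such a separation was not counted, so the ratio does not set the members apart from other genes. The log2 ratio of mt-Cytb to mt-Rnr2, the large rRNA of the mitochondrial ribosome, was -0.78 ± 0.19 in WT (-1.09 to -0.56), -0.92 ± 0.18 in heterozygous (-1.29 to -0.80) and -0.18 ± 0.16 in homozygous mice (-0.44 to 0.03). All 10 homozygous mice lay above all 13 others, those of the 300s at -0.44 to -0.20 and those of the 400s at -0.09 to 0.03. The same held for mt-Nd2, mt-Nd4, mt-Nd5, mt-Nd6 and mt-Atp8, for 9 of 10 mice in mt-Nd1, mt-Co1 and mt-Co2, for 6 in mt-Atp6, 5 in mt-Co3 and 1 in mt-Nd3. mt-Nd4l, which was at 0 in 1 WT and 1 homozygous mouse, gave no ratio there and at most 18.1 CPM in any homozygous mouse, against 14.9 in WT. With the small rRNA mt-Rnr1 as the denominator, 10 of 10 was reached by mt-Nd2, mt-Nd4, mt-Nd5 and mt-Nd6, 9 by mt-Cytb, 8 by mt-Nd1 and mt-Co2, 7 by mt-Co1 and mt-Atp8, 3 by mt-Atp6, and 1 by mt-Co3 and mt-Nd3. Of nuclear transcripts over mt-Rnr2, Atp5b reached 2 of 10 and the long noncoding RNA Malat1 also 2.

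**Figure D5:**
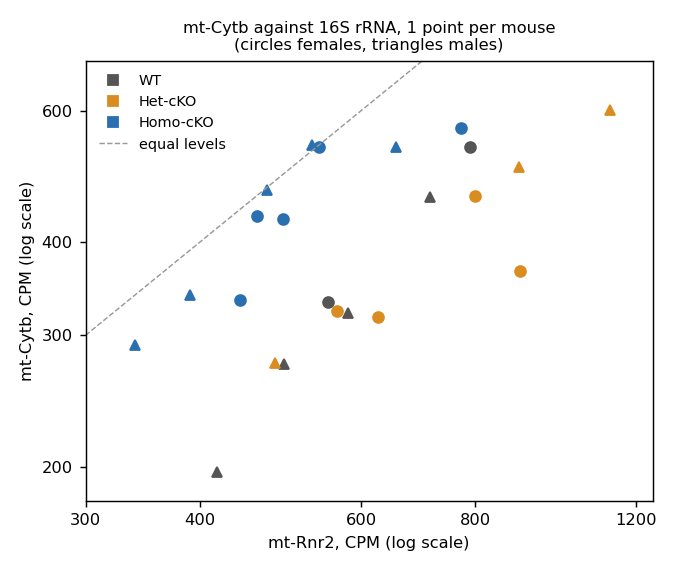
mt-Cytb against mt-Rnr2 in each mouse (both in CPM, log scales), coloured by genotype, with a dashed line at equal levels. Homozygous mice form a line of their own, with a log2 ratio of -0.44 to 0.03, above the WT and heterozygous mice at -1.29 to -0.56.

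Both rRNAs were lower in homozygous than in heterozygous mice, mt-Rnr1 with a log2 fold change of -0.66 (SE 0.169, adjusted p = 0.00648) and mt-Rnr2 with -0.59 (SE 0.164, adjusted p = 0.0116). Against WT the values were -0.10 (adjusted p = 0.777) and -0.23 (adjusted p = 0.438). Summed, the rRNAs were at 474 to 899 CPM in WT, 553 to 1290 in heterozygous and 395 to 886 in homozygous mice, so the ranges overlapped. The log2 ratio of all 13 mitochondrial members to both rRNAs was 1.71 ± 0.13, 1.57 ± 0.19 and 2.19 ± 0.17. mt-Rnr1 shares 0.0% and mt-Rnr2 1.04% of its 50-base sequences with other annotated genes. rRNA is counted here only as far as it entered poly(A)-primed cDNA, and number range and genotype of the homozygous mice cannot be told apart.

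Neither sex nor its combination with genotype gave a call among the members. Between females and males 0 of 88 were called by edgeR (0.0852% of all genes were) and 7 had an unadjusted p below 0.05, against 5.83% of all genes. Fitted values were higher in females for 67 of 88 members (76.1%, against 49.0% of all genes), with a median log2 difference of 0.05, and the highest was 0.23, in Ndufa1 (adjusted p = 0.68). In the test of whether the homozygous effect differed between the sexes, 0 were called (0.0% of all genes) and 2 had an unadjusted p below 0.05, Cox5b and Atp5o, against 4.99%. The fitted effect was lower in females than in males for 80 of 88 members, with a median of -0.14 against 0.00 over all genes and a median standard error of 0.171, and only 2 WT mice were female. The change of Cox5b from WT to homozygous mice was 0.40 lower on the log2 scale in females than in males by this fit (SE 0.172, adjusted p = 0.957).

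NRF1, GABPA and YY1 are known regulators of nuclear respiratory genes, and their motifs were searched in the promoters of the nuclear members. RefSeq promoter windows (GRCm38.p6, from 250 bases before to 50 after the start) were found for 64 of the 85. On either strand, the palindromic motif of NRF1, searched with its central base free, was in 15 of them (23.4%), against 12.2% of all tested genes with a window and 5.19% of all genes. The ETS motif CCGGAAG, to which GABPA binds, was in 14 (21.9%), against 21.4% and 9.93%. The YY1 motif ATGGCGG was in 10 (15.6%), against 9.72% and 4.69%. Of the 18 genes called higher in homozygous than in heterozygous mice, 12 had a window, and the motifs were in 1, 2 and 1 of them. The 150 bases before the RefSeq start of Ndufa7 (the upstream of its listed starts, chr17:33824422-33824571, plus strand), the member with the smallest p in that comparison, are shown with the YY1 motif in capitals, beside those of Ndufa3 (chr7:3617223-3617372, plus strand), called higher against both other genotypes, in whose window none of the 3 motifs was found.
Ndufa7: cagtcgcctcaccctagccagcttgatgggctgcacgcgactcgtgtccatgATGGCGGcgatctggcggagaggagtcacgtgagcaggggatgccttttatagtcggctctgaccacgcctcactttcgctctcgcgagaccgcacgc
Ndufa3: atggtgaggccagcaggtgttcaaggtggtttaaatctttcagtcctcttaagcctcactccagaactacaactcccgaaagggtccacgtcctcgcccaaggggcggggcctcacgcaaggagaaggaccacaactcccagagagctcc
A match describes the letters of the window and was not related to binding in these cells.

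The genes that build, feed and surround the chain were counted in the same fit. Of all genes 5.66% were called higher and 7.09% lower in homozygous than in WT mice, and with lists this short most of the counts that follow lie near those shares. Complex II, which is wholly nuclear, had 0 of 4 genes called between homozygous and WT mice. Of the cytochrome genes outside the symbol rule, Cyc1, the heme subunit of complex III, had a log2 fold change of -0.20 (adjusted p = 0.0496) and Cycs, cytochrome c, 0.26 (adjusted p = 0.0501). Among assembly factors of complex I, 1 of 14 was called higher (Ndufaf4, 0.31, adjusted p = 0.0213) and 0 lower, and among those of complexes III and IV 1 of 24 was called lower (Surf1, -0.34, adjusted p = 0.00275). Of 15 enzymes of the TCA cycle 0 were called. Of 19 tested genes of mitochondrial transcription and biogenesis, Mterf3 (0.41, adjusted p = 0.00463) and Gabpa (0.45, adjusted p = 0.0108) were called higher, and of 11 import genes Tomm40 (-0.23, adjusted p = 0.0194) and Timm50 (-0.20, adjusted p = 0.0437) were called lower. Of 8 carriers and channels, Ucp2, a carrier of the inner membrane, rose by 0.52 (SE 0.0805, adjusted p = 0.000295) and Vdac1, the main pore of the outer membrane, by 0.55 (SE 0.144, adjusted p = 0.0131). No gene of these lists was called between heterozygous and WT mice.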

How the data were processed

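RNA sequencing of sorted microglia from 23 mice was analyzed. The authors used OSA4 (OmicSoft) to align 50-base single-end reads to mm10, with genes as in Ensembl R84, and deposited RSEM expected counts, normalized neither for depth nor for length. Handling of multiply aligned reads is not given in the sources used here. Of the members' values, 54.9% were whole numbers, and all were rounded before testing.

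Symbols and GRCm38 coordinates were found for 42929 of 43411 identifiers. The 12908 genes kept by filterByExpr (by genotype) were TMM-normalized and tested with edgeR 4.0.16 in R 4.3.3 (quasi-likelihood test, the 3 genotypes and sex in the fit, Benjamini-Hochberg adjustment over all genes). A gene was called at an adjusted p below 0.05. CPM are scaled by the TMM-normalized total. The mice are separate animals. Scripts were tested on simulated data.

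Members, lists and tests were chosen with earlier results of these data known. Named were all mitochondrial members, the 8 nuclear members that rose most and the 8 that fell most in homozygous against WT mice (mean log2 CPM of at least 2), the 2 with the smallest p in each comparison, the nuclear gene of highest CPM in each complex, those on the chromosome of Bin1, and the members listed as alternative isoforms. The other genes called between homozygous and heterozygous mice were named after their values were seen. Alternatives were DESeq2 1.42.0, limma-voom (limma 3.58.1), other normalizations and filters, no sex term, single sexes, subsets of homozygous mice, each mouse left out, and, added after seeing the data, the counts of sequence copies summed. Shared sequence was found from 50-base sequences of annotated transcripts. Plots were made in Python 3.11.15 (matplotlib 3.10.9).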

Additional observations from a re-analysis of the deposited data

Results flagged for a closer look

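Within the genotypes, 174 sets of values (58 measures in 3 genotypes) were searched for a mouse whose gap to the nearest other was large for the range of its group, and 7 had one (4.02%). Chance alone marks about 5% of such sets. WT female 1 had 90.4 CPM of Ndufa13, the next WT mouse 76.8, and the call of Ndufa13 against WT rests on this mouse. Heterozygous female 1 was high in Atp5f1 at 153.9 CPM (next 137.0) and in Uqcrb at 66.3 CPM (next 58.7). Heterozygous male 1 was high in Ndufa10 at 91.5 CPM (next 74.4) and in mt-Atp8 at 115.3 CPM (next 70.7). Homozygous male 4 had 12.9 CPM of the muscle isoform Cox6a2, the next homozygous mouse 6.29. Heterozygous female 4 had the lowest log2 ratio of mt-Cytb to mt-Rnr2, at -1.29 (next -0.98).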

How the results depend on the processing

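No paired analysis was possible because the genotypes share no replicate number in the labels. For homozygous against WT mice, 4 nuclear members were called higher and 1 lower. Scaling to library totals gave 11 and 0, and turned the split over all genes from 730 higher and 915 lower into 1772 and 568. The homozygous mice of the 300s gave 1 and 0, those of the 400s 1 higher, females alone, males alone and a 1.5-fold minimum 0 and 0, and an adjusted p below 0.01 also 0 and 0. Over all genes 625 were called higher with the 300s, 336 with the 400s, 10 in females and 135 in males. The lower call was 0 without a filter on low counts and without homozygous females 1 and 2 and males 1 and 2. The nuclear median log2 fold change, 0.04, was 0.13 with library totals and -0.064 in females. Mitochondrial genes called higher, 0, became 1 with library totals (mt-Nd6) and 3 without the 4 mice named above. Those 4 mice had the lowest mitochondrial sums of the homozygous mice. For heterozygous against WT mice DESeq2 called 1 nuclear member lower (2 genes higher and 1 lower over the whole table), and the nuclear median was -0.21 in females. For homozygous against heterozygous mice, 18 nuclear members were called higher, but 10 with the 300s, 9 with the 400s, 1 in males and 0 at a 1.5-fold minimum. Calls of higher genes over the whole table fell as well, from 1428 to 1175 with the 300s, 709 with the 400s and 184 in males. The 1 called lower became 0 with library totals, without a filter, with only these genotypes in the fit, with the 400s, without the 4 mice, in either sex alone and at 1.5-fold, and mitochondrial genes called lower became 1 with copies summed. Without the top member, the nuclear share of counts was by construction lower, 0.423% in heterozygous and 0.478% in homozygous mice. Leaving out 1 mouse gave 2 to 8 nuclear members higher and 0 to 1 lower against WT, with a median of 0.00 to 0.07, and 15 to 23 higher and 0 to 1 lower against heterozygous mice. The 8 came without WT male 2, and the 2 without WT male 1 or WT male 4. For mitochondrial members these fits gave 0 to 1 higher against WT, and medians of 0.18 to 0.44 against WT, 0.11 to 0.42 for heterozygous against WT and 0.00 to 0.21 against heterozygous mice. No result changed direction while keeping its call. The cause of these changes was not tested. Depth limits mainly the isoforms of a few CPM. For mt-Nd4l, homozygous against WT, the standard error was 0.609 on its own counts and 0.231 with the counts of its copy added.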

Other observations

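Atp5c1, the gamma subunit of ATP synthase, had no count in any of the 23 mice. It lies in a stretch of chromosome 2 (3065573 to 22940266) in which all 417 annotated genes, 91 of them protein-coding, are at 0 in every mouse. Its level is therefore not read as absent.

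Over the 23 mice the log2 CPM of mt-Cytb rose with that of Malat1, a nuclear long noncoding RNA (Pearson's r = 0.73, adjusted permutation p = 0.00072, Spearman's rho = 0.70, adjusted permutation p = 0.0018, over 6 relations). Without the 2 mice farthest from the median r was 0.59, and within WT, heterozygous and homozygous mice it was 0.79, 0.80 and 0.67. With mt-Rnr2 r was 0.60 over all mice and 0.99, 0.91 and 0.89 within the genotypes. The other 4 relations, with Atp5b, the neuronal marker sum, total counts and Fos, had r between -0.35 and 0.11, with an adjusted permutation p for r of at least 0.21. For Fos r was -0.11 over all mice and -0.82 within the 10 homozygous mice, in which 4 mice with high Fos stand apart, and whether this relation holds without them was not tested.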
